A study of Homo sapiens with 5 samples.

Results

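The peaks described here are those of the ETV6 and RUNX1 loci, the genes joined by the t(12;21) translocation of the leukaemia line Reh. Members were chosen by position in hg18, with no regard to their scores. They are the peaks overlapping chromosome 12 from 11.65 to 12.00 Mb, where ETV6 spans about 11.694 to 11.940 Mb, or chromosome 21 from 35.00 to 35.50 Mb, where RUNX1 spans about 35.082 to 35.343 Mb. Of 109692 listed peaks in all, 88 were members, 31 in the ETV6 window and 57 in the RUNX1 window.

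The peaks came from DNase-seq, in which DNase I cuts accessible chromatin and the released fragments are sequenced. The 3 Hodgkin lymphoma lines were L1236, L428 and L591, and the 2 lines grouped as non-Hodgkin were Reh, a pro-B lymphoblastic leukaemia line, and Namalwa, a Burkitt lymphoma line. All were grown in the same medium to passage 7. DNase I was applied at 6 U/ml to nuclei of Reh, L428 and L1236, while Namalwa and L591 received 12 U/ml. With 1 library and 1 peak list a line, the lines stand as replicates of their group, and the spread between cultures of a line is unknown.

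ETV6 encodes an ETS-family repressor needed for blood formation in the bone marrow, and RUNX1 encodes the DNA-binding subunit of core-binding factor, which is required for blood stem cells to arise and for early B cell development. In t(12;21) the promoter and 5′ part of ETV6 are placed before nearly all of the RUNX1 coding sequence, so the fusion is read from the ETV6 promoter. RUNX1 itself is read from a distal promoter at the start of the gene and a proximal promoter far inside it, with a long intron between them. Reh is known to carry the fusion and to have lost its other ETV6 allele. The peak lists hold no junction reads, so the fusion could not be checked in them. A RUNX1 peak in Reh cannot be assigned to the fused or the normal copy. The break in ETV6 was not located. A Reh peak inside ETV6 and away from the ends of the gene therefore cannot be assigned to one or the other product of the translocation. Copy number was not measured, and a change in copy number and a change in accessibility cannot be told apart.

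The lists were of unequal length. On chromosomes 1 to 22 and X they held from 23288 (L428) to 27925 peaks (Reh), but 5760 in Namalwa. The read depth behind them is unknown. A score is the authors' peak area and has no scale common to the lists. It is given here as a percentile within the line's own list, so that 100 marks the highest-scoring peak of that list. Absence of a peak means only that none was listed.

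The promoter sequences show the kind of DNA before an annotated start of each gene, and both entries of the RefSeq promoter table (GRCh38.p14) matched by symbol. Only the 250 bases before the start are given. The ETV6 entry is chr12:11649424-11649673 on the plus strand, and its start is an end of the gene in RefSeq. The RUNX1 entry is chr21:34888700-34888949 on the minus strand. Its start lies inside the gene in RefSeq, so it is an internal start and not the start at which the distance of RUNX1 peaks is counted below. Capitals mark the ETS motif CCGGAA, searched with its reverse complement TTCCGG.
ETV6: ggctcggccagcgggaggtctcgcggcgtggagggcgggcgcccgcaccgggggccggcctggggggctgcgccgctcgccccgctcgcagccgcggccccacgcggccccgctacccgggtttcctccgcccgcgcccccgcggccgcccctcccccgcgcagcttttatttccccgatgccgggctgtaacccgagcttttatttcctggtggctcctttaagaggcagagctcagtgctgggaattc
RUNX1: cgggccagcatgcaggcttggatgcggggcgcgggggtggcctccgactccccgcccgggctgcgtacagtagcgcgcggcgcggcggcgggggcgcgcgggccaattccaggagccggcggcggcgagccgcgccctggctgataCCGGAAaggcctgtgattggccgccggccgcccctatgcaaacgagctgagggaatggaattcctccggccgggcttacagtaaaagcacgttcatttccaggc

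Both stretches were rich in CpG dinucleotides, with 32 in each against a median of 11 over 35116 promoter stretches of the same length. G and C made up 74.4% of the bases in ETV6 and 71.2% in RUNX1, against a median of 58%. The RUNX1 stretch held the ETS motif once, at base 147 counted from its 5′ end, and the ETV6 stretch held none. The motif was found in 14.5% of all promoter stretches. The RUNX motif TGTGGT (reverse complement ACCACA) was in neither stretch and was found in 11.0% of all. A match is a description of the letters and not a binding site. The peaks are in hg18, so these GRCh38 positions were not set against them.

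At ETV6, Reh and L591 had many peaks and the other lines few. L591 listed 13 and Reh 12, L1236 and L428 listed 3 each, and Namalwa listed none. Per 10000 listed peaks this was 4.89 in L591 (exact 95% interval 2.60 to 8.35), 4.30 in Reh (2.22 to 7.51), 1.29 in L428 (0.266 to 3.76), 1.17 in L1236 (0.241 to 3.42) and 0 in Namalwa. The intervals cover counting error only, treat peaks as independent, and overlap between any pair of lines. Over all 6543 stretches of 350 kb that held a peak of any line, the median was 3 peaks in L591, 2 in L1236, L428 and Reh, and 0 in Namalwa. As many peaks as at ETV6 were found in 5.91% of these stretches for L591 and in 9.80% for Reh.

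At RUNX1, L428 stood apart. It listed 26 peaks, against 12 in L1236, 9 in L591, 9 in Reh and 1 in Namalwa. Per 10000 listed peaks this was 11.2 in L428 (exact 95% interval 7.29 to 16.4), 4.68 in L1236 (2.42 to 8.17), 3.38 in L591 (1.55 to 6.42), 3.22 in Reh (1.47 to 6.12) and 1.74 in Namalwa (0.0440 to 9.67). The L428 interval lay above those of L591 and Reh and overlapped those of L1236 and Namalwa. Of 4936 stretches of 500 kb, 1.18% held 26 or more L428 peaks, and 21.6% held 9 or more Reh peaks.

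**Figure D1:**
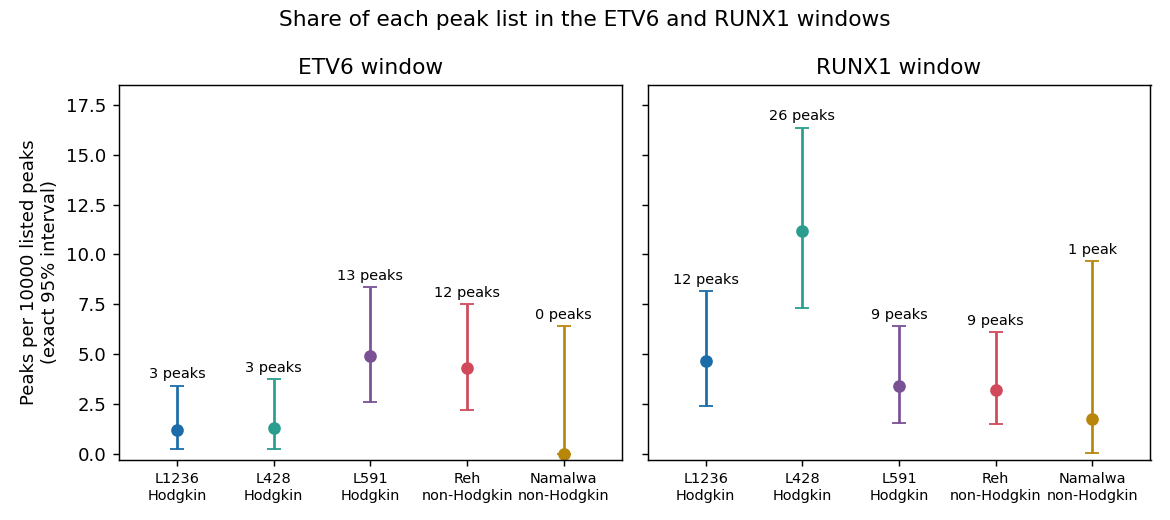
Peaks in the ETV6 window (left) and the RUNX1 window (right) per 10000 listed peaks on chromosomes 1 to 22 and X, 1 point per cell line with its exact 95% interval, and the number of peaks written above. L591 and Reh are highest at ETV6, at 4.89 and 4.30, and L428 is highest at RUNX1, at 11.2.

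The design compares Hodgkin with non-Hodgkin lines, and at neither locus did the difference of group means stand out among the 10 splits of the lines. At ETV6 the Hodgkin lines had 2.45 ± 2.11 peaks per 10000 (SD, n = 3) and the non-Hodgkin lines 2.15 ± 3.04 (SD, n = 2), a difference of 0.30 (two-sided exact permutation p = 0.9 over 10 splits of the lines, adjusted p = 0.9 over both windows). At RUNX1 the Hodgkin mean was 6.41 ± 4.17 (SD, n = 3) against 2.48 ± 1.05 (SD, n = 2), a difference of 3.93 (exact permutation p = 0.3, adjusted p = 0.6). Each Hodgkin value was above each non-Hodgkin value at RUNX1, but 2 of the other splits gave a larger difference, and each of them set L428 with 1 other Hodgkin line against the rest. The smallest p this design allows is 0.1. Without L428 the RUNX1 difference was 1.55, and without Namalwa the ETV6 difference turned to -1.85.

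The ETV6 difference ran in opposite directions at the 2 DNase I concentrations. At 6 U/ml, the mean of L1236 and L428 was 1.23 per 10000 against 4.30 in Reh, and at 12 U/ml L591 had 4.89 against 0 in Namalwa. At RUNX1 the Hodgkin value was higher at both, at 7.92 against 3.22 and at 3.38 against 1.74. Namalwa had the shortest list and the lowest counts. With the 5760 highest-scoring peaks of each list, so that all lists were of equal length, the difference was 1.74 per 10000 at ETV6 and 3.18 at RUNX1 (two-sided exact permutation p = 0.4 and 0.6), and without Namalwa the RUNX1 difference was 3.19.

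At the start of ETV6, where the promoter that drives the fusion lies, the region nearest to the start had peaks in L1236 and L591 only. It spanned 11693761 to 11693990 on chromosome 12 and ranked low in both lists, at percentile 9.63 in L1236 and 7.26 in L591. L591 had a further peak at -0.58 kb, where negative distances lie before the gene, at percentile 35.6. The gene starts are known here only to about 1 kb, as rounded in the bounds above.

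Reh had a single peak within 5 kb of the ETV6 start, at 11695201 to 11695420, 1.31 kb inside the gene. It scored 1040, at percentile 18.2 of the Reh list, and no other line had a peak there. The next 76.3 kb held no Reh peak. L591 had a longer stretch without a peak in this part of the gene, 92.1 kb from 11697911 to 11789990. In L1236 and L591 a stronger peak of this part lay 3.64 kb inside, at 11697371 to 11697910, with percentiles 61.4 and 43.4, and it held the highest-ranking L1236 peak of the window. L428 listed nothing nearer than 96.5 kb from the start. The region nearest to the rounded ETV6 start was listed in L1236 and L591 and not in L428, Namalwa or Reh. As the start is known only to about 1 kb, whether the Reh peak at 1.31 kb lies at the promoter is not known.

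**Figure D2:**
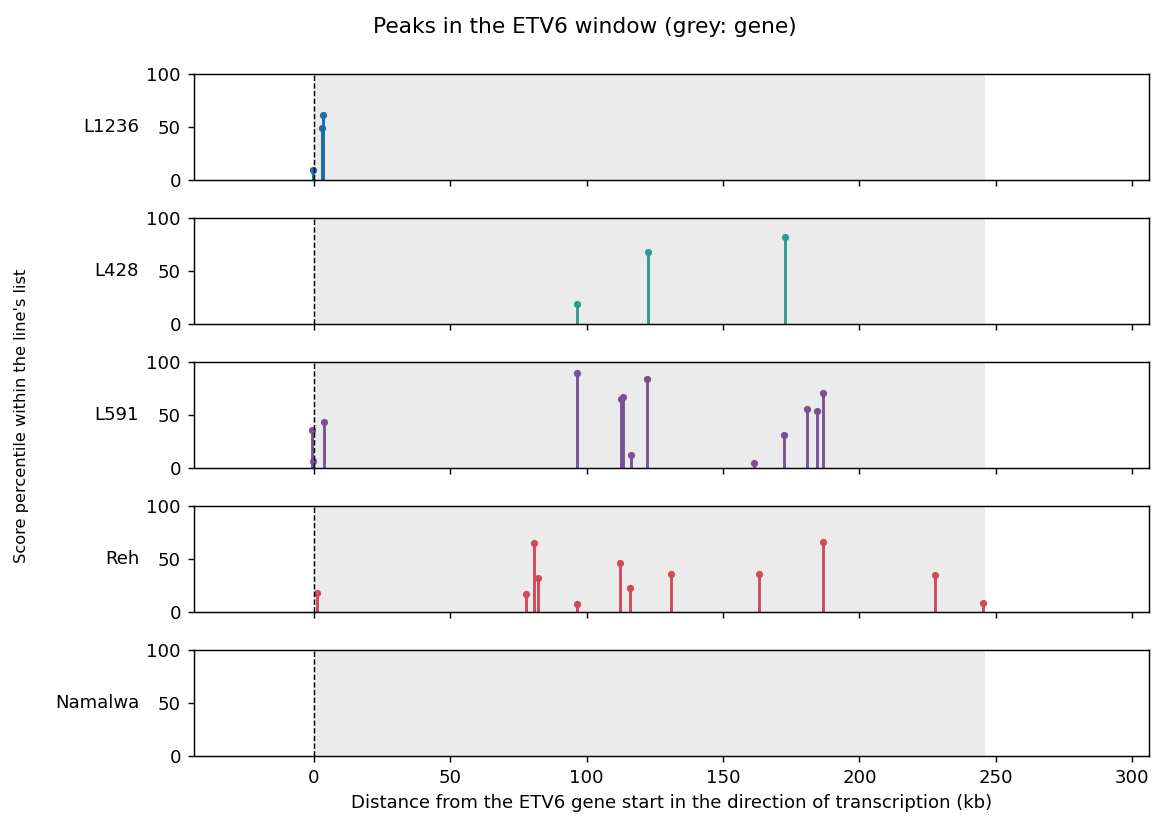
Peaks in the ETV6 window by cell line, placed by distance from the gene start (kb, dashed line) with the score percentile within the line's list as height; grey marks the gene, and stems do not show peak width. The 3 L1236 peaks lie within 5 kb of the start, Reh and L591 peaks reach through the gene, and Namalwa has none.

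Inside ETV6, 8 of the 12 Reh regions were of Reh alone (66.7%), against 48.8% of all Reh regions of the genome. The window held 22 merged regions, formed by joining peaks of any line that shared at least 1 bp. A peak of 1 line alone was found in 14 of them, or 63.6%, close to the 62.9% of the genome. Reh had a peak in 12 of the 22 (54.5%, genome share 44%) and L591 in 13 (59.1%, genome share 43.5%). In all, 8 had a peak in Reh alone (36.4%, exact 95% interval 17.2 to 59.3). Over the 59212 merged regions of the genome the share was 21.5%, which lies within that interval. L591 alone had 5 regions, against a genome share of 12.5%, L1236 alone had 1 against 19.8%, and L428 alone had 0 against 9.02%. The ETV6 window had 0 regions in all 5 lines (genome share 5.12%), 0 in the Hodgkin lines only (4.33%) and 0 in Reh and Namalwa only (1.04%).

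The strongest Reh-only region of ETV6 lay 80.7 kb inside the gene, at 11774471 to 11774950, with a score of 2776 and percentile 65.3. It sat in a cluster with Reh-only regions at 11776201 to 11776490 (percentile 31.8) and 11771721 to 11771900 (17.2), a stretch in which no other line had a peak. The Reh-only regions next in rank were at 11824691 to 11824990 (36.4), 11857071 to 11857360 (36.1) and 11921541 to 11921830 (34.8). Of the 8, only the region at 80.7 kb ranked in the upper 50% of the Reh list.

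The far end of ETV6 had peaks in Reh alone. Beyond the farthest peak of any other line, 187 kb from the start, Reh had 2 peaks, at 228 and 245 kb, the second at the 3′ end of the gene (11939251 to 11939420, percentile 9.10). This stretch was singled out after its values were seen. The translocation is known to break ETV6 in an intron towards its 3′ end. The peak at 245 kb, at the 3′ end of the gene, lies past a break of this kind. The break in Reh was not located here, so which side of it the peak at 228 kb lies on is not known.

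Reh shared 4 ETV6 regions with L591, 1 of them also with L428, and none with L1236. Regions of L591 and Reh only numbered 3, or 13.6% of the window, against 2.71% of the genome. L591 and Reh were also the lines with the most regions of the window, at 13 and 12 of 22. Of all Reh regions of the window, 33.3% were shared with L591, below the 41.6% over the genome. The strongest region shared by these lines lay 187 kb inside the gene at 11880451 to 11881170, with percentile 70.4 in L591 and 66.3 in Reh, and this was also the highest-ranking Reh peak of the window. At 11806211 to 11806720 the values were 65.0 and 46.0, and at 11809931 to 11810300 they were 12.5 and 23.0.

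The region of 3 lines lay 96.4 kb inside ETV6 at 11789991 to 11790870. It was the highest-ranking L591 peak of the locus, at percentile 89.4 with a score of 14072 and a width of 880 bp. The peaks of L428 and Reh in it were low, at percentiles 19.0 and 8.03. The highest L428 peak was at 11866291 to 11866930 (percentile 82.1), where L591 reached 31.1. Another region of L428 and L591, at 11815571 to 11816790, held percentiles of 68.2 and 83.7, and these lines together had 2 regions of their own (9.09%, genome share 5.74%).

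At the distal start of RUNX1 all lines but Namalwa had a peak. The region spanned 35342781 to 35343780 on chromosome 21 and held 2 peaks in L1236 (scores 7880 and 5352), 2 in L428 (5856 and 12504), 1 in L591 (10904) and 2 in Reh (816 and 3824). The best rank in it was percentile 94.6 in L428, followed by 83.2 in L591, 75.3 in Reh and 62.6 in L1236. It held the highest-ranking peak of the window in L428 and L591. In Reh the stronger peak was centred at -0.41 kb, and the weaker one, at percentile 4.15, at -0.0055 kb from the rounded start. As the start is known only to about 1 kb, which of these Reh peaks covers it is not known.

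Upstream of it, at -2.65 kb, lay the only region of either locus with a peak in all 5 lines (35345371 to 35345920). It ranked highest in L428 (percentile 66.8) and Reh (64.7), lower in L1236 (47.5) and Namalwa (39.6), and near the bottom of the list in L591 (8.64). It gave the single Namalwa peak of both windows (35345411 to 35345730, score 1816, 320 bp). Such regions made up 1 of 32 merged regions at RUNX1 (3.13%), against 5.12% of the genome. Between this region and the start, Reh had a region of its own at 35344591 to 35344890 (percentile 38.8).

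**Figure D3:**
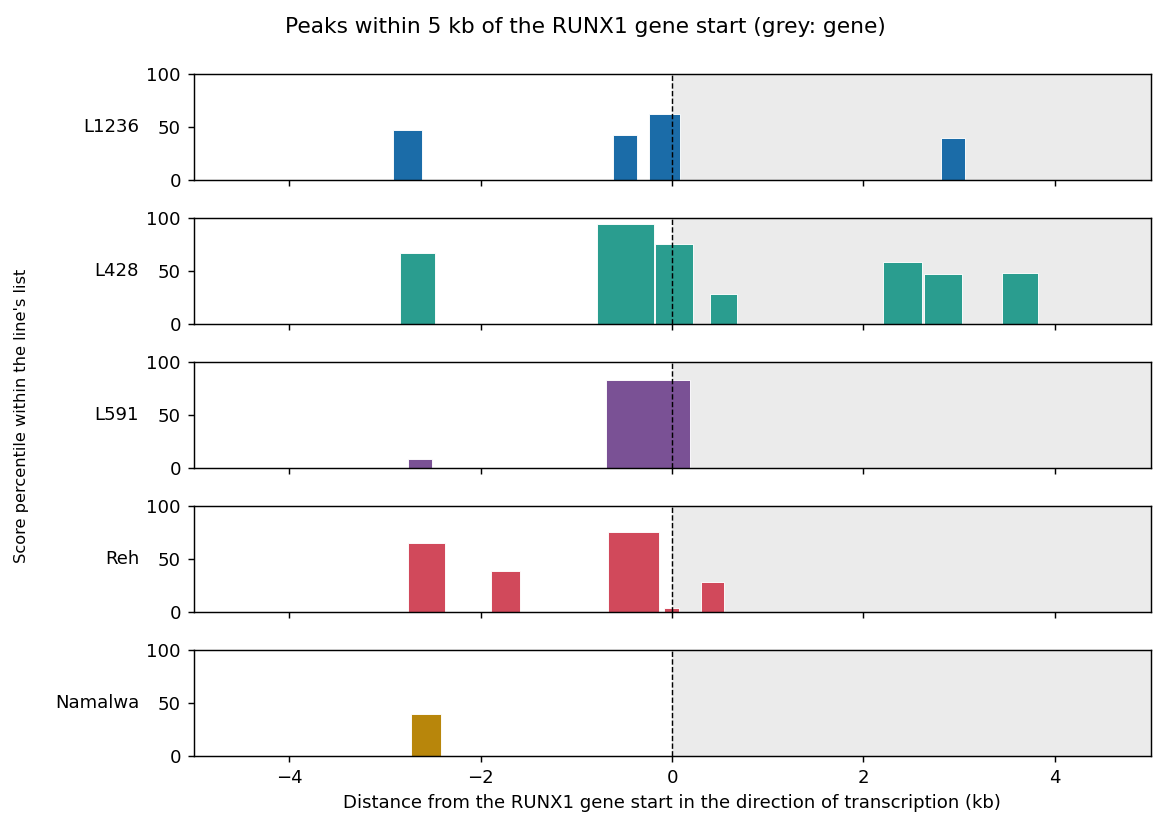
Peaks within 5 kb of the RUNX1 gene start (dashed line, known to about 1 kb) by cell line, drawn to width, with the score percentile within the line's list as height; negative distances are before the gene, and grey marks the gene. L1236, L428, L591 and Reh have a peak at the start, and all 5 lines have one in the region at -2.65 kb.

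Within 5 kb of the RUNX1 start L428 listed 7 peaks, Reh 5, L1236 4, L591 2 and Namalwa 1, so that 5 of the 9 Reh peaks of this locus lay there. A region of L428 and Reh sat 0.49 kb inside the gene, at percentile 28.7 and 28.9. L428 also had peaks between 2.40 and 3.64 kb inside the gene, 1 of which was shared with L1236 (percentiles 46.9 and 39.3).

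Further into RUNX1, Reh had its highest-ranking peak of the locus 21.9 kb from the start. It spanned 35320761 to 35321440, 680 bp wide, with a score of 4168 and percentile 77.5. The L428 peak in the same region was at percentile 30.7, and L1236, L591 and Namalwa had none. A narrower peak beside it, at 35321461 to 35321690 (percentile 19.1), was the other region of Reh alone. An enhancer active in blood stem cells is known in the intron after the distal promoter, but no hg18 annotation was used here, so whether this region is that enhancer was not tested.

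The middle of RUNX1 held peaks of the Hodgkin lines and none of Reh. Between 35183051 and 35320760, a stretch of 138 kb and the longest between neighbouring Reh peaks of the window, L428 had 11 peaks, L1236 7 and L591 3, and Namalwa had none. The stretch was singled out after these values were seen and lacks Reh peaks by definition, so the counts are a description. It runs from the Reh peaks near 21.9 kb to a pair of Reh peaks 160 kb inside the gene. The longest such stretch in this window, at other positions, was 127 kb in L1236, 79.0 kb in L591 and 39.7 kb in L428. The Reh stretch held both regions with peaks in the 3 Hodgkin lines and neither other line (2 of 32, 6.25%, genome share 4.33%).

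Of these Hodgkin-only regions, the one at 35283601 to 35284320, 59.0 kb from the start, held the highest-ranking L1236 peak of the window, at percentile 82.7, with 66.8 in L428 and 9.97 in L591. The other, at 35281031 to 35281730, was strongest in L428 at percentile 91.7, with 36.7 in L1236 and 7.91 in L591. The order of the lines thus differed between these neighbouring regions. L428 reached percentile 91.5 also at 35261531 to 35262240, where L591 had 41.8, and L1236 had a peak of its own at 35236901 to 35237450 at percentile 74.9.

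**Figure D4:**
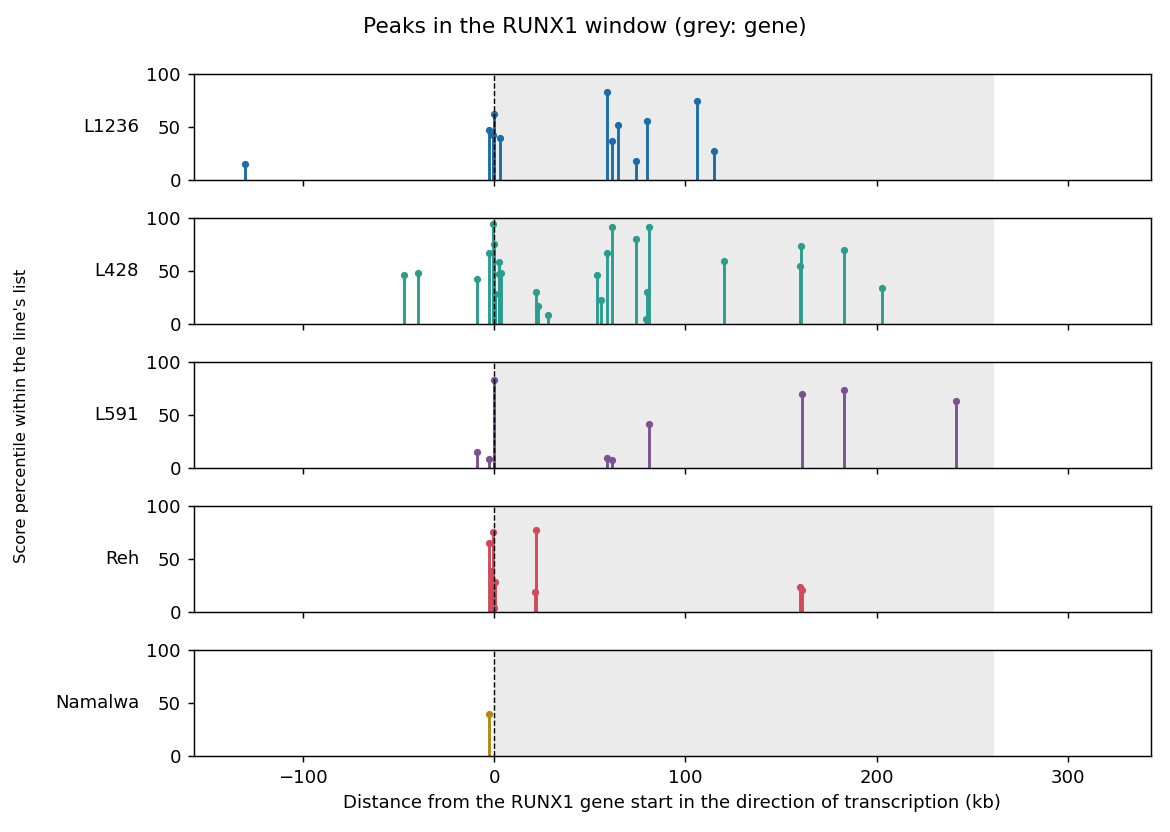
Peaks in the RUNX1 window by cell line, placed by distance from the gene start in the direction of transcription (kb, dashed line), with the score percentile within the line's list as height; grey marks the gene, and stems do not show peak width. Reh peaks fall at the start, at 21.9 kb and at 160 kb, and the stretch between these last positions holds peaks of the 3 Hodgkin lines.

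Deep inside RUNX1, 160 to 161 kb from the start, lay a pair of neighbouring regions. The region at 35182011 to 35182670 had peaks in L428, L591 and Reh, at percentiles 73.5, 69.9 and 21.2, and the region at 35182771 to 35183100 had peaks in L428 and Reh, at 54.7 and 23.8. Reh was the lowest line in each, and L1236 and Namalwa had no peak. The proximal promoter of RUNX1 is known to lie far inside the gene, but whether these regions cover it was not tested for want of an hg18 annotation. Towards the 3′ end, L428 and L591 shared a region at 35159701 to 35160420 (percentiles 70.2 and 73.3), and L591 had the last peak of the gene at 35101631 to 35102090 (63.1).

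The RUNX1 window held 32 merged regions, of which 18 (56.3%) had a peak in 1 line alone, against 62.9% of the genome. L428 had a peak in 25 of them (78.1%, exact 95% interval 60.0 to 90.7), against 36.5%. Reh had a peak in 8 of the 32 RUNX1 regions (25%, exact 95% interval 11.5 to 43.4), against 44% of all merged regions of the genome and 12 of 22 at ETV6. The 32 include the regions of L428 alone, which lower the share of every other line. By count, Reh had 9 peaks in the window, against a median of 2 over stretches of 500 kb. Only 2 RUNX1 regions were of Reh alone (6.25%, exact 95% interval 0.766 to 20.8), against the genome share of 21.5%. Regions of L428 alone numbered 11 (34.4%, exact 95% interval 18.6 to 53.2), against 9.02% of the genome. L1236 alone had 4, against 19.8%, and L591 alone had 1, against 12.5%. Without L428, the Reh-only count at RUNX1 was 5 of 21 merged regions, so the low Reh-only share at RUNX1 depended on L428. The genome share without L428 is not given here. The difference in sharing between the loci was not tested, since neighbouring regions of 1 line are not replicates.

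Over the genome, Reh shared 41.6% of its regions with L591, 35.3% with L428 and 28.2% with L1236. Of the 8 RUNX1 regions of Reh, 6 were shared with L428 (75%), 3 with L591 (37.5%), 2 with L1236 (25%) and 1 with Namalwa. At ETV6, 4 of 12 were shared with L591 (33.3%), 1 with L428 (8.33%) and none with L1236, each below its genome share. L428 at RUNX1 was the only Hodgkin line above its genome share at either locus, and it was also the line with the most regions there.

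Most Reh peaks of both loci ranked below the middle of the Reh list. At ETV6 the median percentile was 33.3 in Reh (range 8.03 to 66.3, 12 peaks), 54.2 in L591 (4.55 to 89.4, 13 peaks), 68.2 in L428 and 49.1 in L1236 (3 peaks each). At RUNX1 it was 28.9 in Reh (4.15 to 77.5, 9 peaks), 41.8 in L591 (7.91 to 83.2), 48.2 in L428 (4.80 to 94.6) and 44.9 in L1236 (15.8 to 82.7). By construction the median over a whole list is about 50. In Reh, 2 of 12 ETV6 peaks and 3 of 9 RUNX1 peaks ranked above percentile 50, against 7 of 13 and 4 of 9 in L591.

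Score per bp, which sets width aside, gave a like picture for Reh. It ranged from 4.52 to 6.80 over the Reh peaks at ETV6, with a median of 4.90 against 5.88 over the whole Reh list, and 1 of 12 lay above the list's median. At RUNX1 the Reh median was 5.44, and 3 of 9 were above. In L428 the RUNX1 median was 11.1 against a list median of 10.4, with 14 of 26 above. Among the 5760 highest-scoring peaks of each list, Reh had none in either window, L428 had 1 at ETV6 and 5 at RUNX1, L591 had 2 and 1, L1236 had 0 and 1, and Namalwa had 0 and 1.

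**Figure D5:**
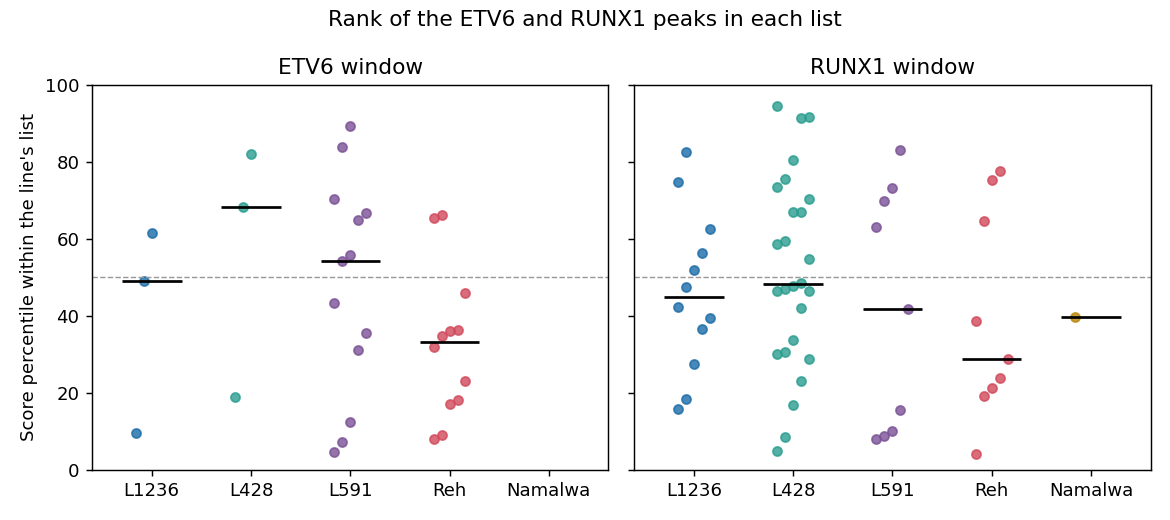
Score percentile within the line's list of each peak in the ETV6 window (left) and the RUNX1 window (right), 1 point per peak, with the median as a black bar and percentile 50 as a dashed line; sideways offsets only separate points. Reh medians are 33.3 and 28.9, the lowest of the lines with more than 1 peak.

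The bounds of the windows left few doubtful members. Around ETV6 the last members were the L591 peak at 11693221 and the Reh peak at 11939251, and the nearest peaks outside were both of L591, starting at 11624361 (percentile 42.9) and 12013651 (20.3). Around RUNX1 the last members were the L591 peak at 35101631 and the L1236 peak at 35473071, and the nearest outside were an L1236 peak starting at 34935121 (1.74) and a Reh peak starting at 35520641 (33.5).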

How the data were processed

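DNase-seq peak lists of 5 cell lines were used. Reads had been mapped to hg18 with Bowtie 1.00, per the submitters' processing notes, then lengthened to 146 bp and counted in bins of 10 bp, per the file headers. The peak caller, its cutoff and the depth are not stated by the labels or headers. All lists except that of L1236 are marked qcTrimmed. The deposited signal is a peak area with no stated scaling, so it was used as a percentile within each list. A growth note spells L591 differently, and the title was followed.

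Positions are 1-based. Members and named regions were chosen with earlier results of these data known. Named were the region at each gene start, regions of all 5 lines, the 5 highest-ranking regions of Reh alone and of the Hodgkin lines only, regions of Reh and Namalwa only, and each line's highest-ranking peak; other regions were chosen after their values were seen. Groups were compared by exact permutation, and shares have Clopper-Pearson intervals at 95%. These p-values measure the spread between single libraries of different lines. Merging and permutation were tested on simulated data. A set of related genes was not analysed here, since no hg18 annotation was used. Alternatives covered list length, measure, overlap, peak width, window bounds and each line left out. Python 3.11.15, numpy 2.4.6, scipy 1.17.1 and matplotlib 3.10.9 were used.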

Additional observations from a re-analysis of the deposited data

How the results depend on the processing

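No paired analysis was possible because each line gave 1 list and the labels carry no replicate numbers. The ETV6 difference between groups was 0.30 peaks per 10000. It was 1.74 with the 5760 highest-scoring peaks of each list, 1.87 with the upper 50%, 0.912 by covered bp and 0.03 against peaks of the same chromosome, and it changed sign with gene bounds in place of the window (-0.0814), without L591 (-0.92) and without Namalwa (-1.85). Leaving out each line gave -1.85 to 2.45 at ETV6 and 1.55 to 5.44 at RUNX1, where the sign held in the 10 alternatives run. The 5 alternatives with all lines gave exact permutation p-values of 0.4 to 1 at ETV6 and 0.2 to 0.6 at RUNX1. With a line left out, too few splits remain for p to bear on the result. The count of Reh-only regions at ETV6 was 8 to 11 with each other line left out. It was 0 with the 5760 highest-scoring peaks of each list and 1 with the upper 50%, where fewer peaks enter. At RUNX1 the count of 2 became 1 with peaks joined up to 200 bp apart, 1 with gene bounds, 1 with the upper 50% and 0 with the highest-scoring 5760 peaks, and it was 2 to 5 with each line left out, the highest without L428. The depth of the lists is unknown, so a missing peak, above all in Namalwa, cannot be read as closed chromatin.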
